A study of Homo sapiens with 36 samples.

Results

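The genes described here are 41 adhesion, junction and actomyosin genes, chosen by name from the GENCODE release 29 annotation. They comprise 8 integrins, 11 linkers between integrins and actin, 4 focal adhesion signalling genes, 4 actin crosslinkers, 7 cell-cell junction genes, and 7 genes of myosin II and actin. All 41 were listed both among the 58219 genes of the RNA data and among the 43582 genes of the ribosome footprint data. The list was drawn up with earlier results of these libraries known, so the differences below describe the genes and are no independent evidence for the list. The cells were WiT49, an established line from an anaplastic Wilms tumor, a childhood kidney cancer. They received 2 nM actinomycin D (actD), a DNA-binding inhibitor of transcription, or its solvent dimethyl sulfoxide (DMSO). Exposure lasted 6 h, 72 h, or 2 weeks, in which a 7-day round of 3 days with drug or solvent and 4 days in plain medium was run 2 times. Every combination of assay, time and arm held 3 libraries, 36 in all. For the RNA libraries of 2 weeks the sample titles and the library names contradict each other on the arm. The library names are used here, so these arms are written as named actd and named dmso, and every RNA difference of 2 weeks has the opposite sign if the titles are right. With the library names, 15 of the 18 genes tested in 2-week footprints had RNA and footprint differences of 1 sign. No such count over all genes is given, and which labels are right was not tested. All groups are 1 cell line, and the labels do not say whether replicates were separate cultures, so p-values measure the spread between these libraries.

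Integrins are paired transmembrane receptors that bind the matrix outside the cell and, through talin, kindlin, tensin and vinculin, the actin cytoskeleton inside it. At contacts between cells, cadherins bind each other and are tied to actin by the catenins, with tight junction scaffolds such as ZO-1 close by. Filamins and alpha-actinins crosslink the actin filaments, and non-muscle myosin II, built of heavy and light chains, pulls on them. Many of these genes are known targets of the transcription factor SRF and its actin-regulated coactivators.

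RNA libraries totalled 40221994 to 69240041 counts, and footprint libraries 152556 to 1281039, of which 23134 to 283435 fell in protein-coding genes. Precision is therefore far lower for footprints, where only 11, 23 and 18 of the 41 genes passed the filter on low counts at 6 h, 72 h and 2 weeks. A gene could pass through 1 arm alone, so the footprint counts and medians below describe the genes that passed and not the list. Mitochondrial ribosomal RNA made up 28.2% ± 3.9 (SD, n = 3) of the RNA counts in actD and 19.1% ± 3.5 (SD, n = 3) in DMSO at 72 h. In the 72 h footprints the same shares were 16.3% ± 4.3 and 6.94% ± 3.2 (SD, n = 3 each). At 2 weeks the RNA shares were 28.7% ± 2.7 (named actd) and 21.3% ± 1.6 (named dmso), and the footprint shares 5.67% ± 0.57 in actD and 3.55% ± 0.47 in DMSO (SD, n = 3 each). The p was 0.1 for all 4 (exact permutation test, two-sided), and 3 against 3 cannot give a smaller one. The part of this shift in the differences below was not tested beyond a fit on protein-coding genes alone. Footprint libraries also differed in other classes. Protein-coding genes held 2.12% to 19.8% of counts at 6 h and 6.24% to 9.39% at 2 weeks. MicroRNA genes held 4.67% to 71.4% at 6 h, and small nuclear RNA genes 46.3% to 64.8% at 2 weeks. TMM scaling took the totals of 6 h actD library 1 and DMSO library 1 from 1281039 to 483903 and from 478098 to 980668. The 6 h footprint levels below rest on that scaling. In 72 h footprints it took the totals of DMSO library 3 from 152556 to 80402 and of actD library 3 from 693951 to 840637. Whether arms are apart is read after TMM scaling throughout. On library totals the 72 h footprint arms of TNS3, CTNNA1, FLNC, TJP1, CTNNB1, PTK2 and MYL12A overlap. Of markers of the line's origin, WT1 stood at 3.77 to 37.6 CPM (counts relative to library size, here after TMM scaling) in RNA. SIX2, CITED1, PAX2, EYA1 and SALL1 were below 0.8 CPM in every RNA library, while KRT8, KRT18 and VIM exceeded 100 CPM in every one. Of 3 blood markers HBB was listed at 0, PTPRC reached 0.42 CPM and CD68 2.1 CPM. Of 3 skeletal muscle markers MYOD1 was listed at 0, MYH3 reached 2.59 CPM and DES stood at 6.27 to 10.7 CPM.

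In RNA, talin 1 and 2, tensin 3, alpha-catenin, filamin C and alpha-actinin 1 were lower under actD at 6 h and 72 h and in the libraries named actd at 2 weeks, with no overlap between arms at any of the 3 times. Integrin beta 1, alpha V, alpha 5 and alpha 2 and the light chains MYL9 and MYL12A had higher fitted RNA levels at all 3 times. The shares of all genes with either pattern were not counted. No gene of the list passed an adjusted p of 0.05 in RNA (quasi-likelihood test of edgeR, Benjamini-Hochberg over all genes tested). At 6 h 0 of 41 were called, as were 0% of the 22669 genes tested. There, 10 of 41 were lower at an unadjusted p under 0.05 against 4.54% of all genes, and none was higher (3.67% of all genes). The arms did not overlap for 15 genes, all lower in actD (8.17% of all genes were apart in that direction and 7.66% in the other), and 28 of 41 had a lower fitted level against 47% of all genes. DESeq2 called 3 at 6 h, namely TLN1, TLN2 and TNS3. The share of all genes called by DESeq2 is given neither here nor below, so its counts have no background.

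At 72 h 0 of 41 were called, beside 0.00472% of 21195 genes, with 13 lower and none higher at an unadjusted p under 0.05 (7.78% and 5.27% of all genes). Fitted levels were lower for 28 of 41, against 48.6% of all genes. Arms were apart for 13 lower genes, against 10.3% of all genes, and for 2 higher ones, against 10.5%. The median log2 difference of the 41 was -0.17 at 6 h and -0.41 at 72 h, beside 0.02 over all genes at both times. DESeq2 called 5 at 72 h (ITGA6, VCL, TNS3, CTNNA1 and MYH9), and 1 edgeR fit over the 18 RNA libraries called 9, all lower (TLN1, TLN2, VCL, TNS3, CTNNA1, MYH9, PTK2, ACTN1 and ACTN4), against 4.89% of all genes. Library 3 of the 72 h actD arm stood closer to DMSO than the others: its median over the 41 genes was -0.12, against -0.68 and -0.62 in libraries 1 and 2. The DMSO libraries had -0.02, 0.22 and -0.28, so the arms overlapped in this median through the third library of each. Without it the median difference was -0.67.

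At 2 weeks 0 of 41 were called (0% of 21137 genes), 9 were lower and 5 higher at an unadjusted p under 0.05 (4.93% and 4% of all genes), and DESeq2 called TLN1 and TLN2. Arms were apart for 12 genes lower and 7 higher in the libraries named actd, against 7.83% and 7.86% of all genes, and 23 of 41 were fitted lower, against 53.2%. The median was -0.10, beside -0.02 over all genes, and -0.02 without library 2 named actd. Across the 3 times, 19 of the 41 had lower fitted RNA each time and 6 had higher. Fewer adherent cells of one state and less RNA per cell cannot be told apart in such bulk libraries.

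**Figure D1:**
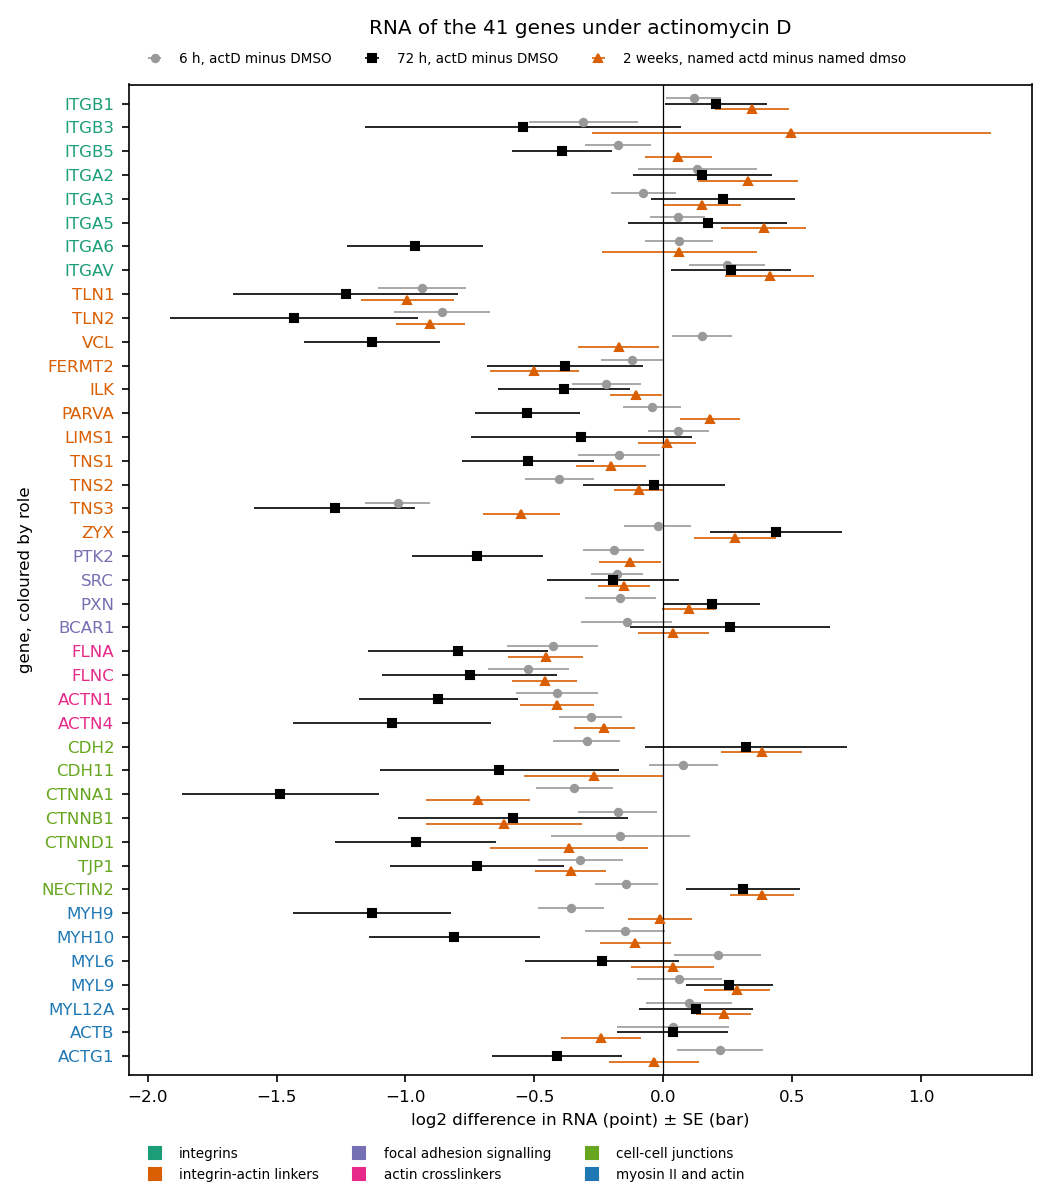
Log2 difference in RNA between actD and DMSO (x axis, points, with SE as bars) for the 41 genes (y axis, coloured by role) at 6 h, 72 h and 2 weeks (named actd minus named dmso). Talins, tensin 3, actin crosslinkers and alpha-catenin lie left of 0 at each time, and the 8 integrins lie right of 0 at 2 weeks.

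Among footprints, which report ribosomes on messages, 2 genes passed the test at 72 h: the myosin light chain MYL6 rose and tensin 3 fell. These were 2 of 23 tested, where 3.79% of all 2426 tested genes were called (1.61% higher and 2.18% lower). Unadjusted p was under 0.05 for 10 lower and 3 higher genes, against 13.1% and 14.2% of all genes. Arms did not overlap for 9 lower and 4 higher ones, against 16.2% and 19.5%. The median of the 23 was -0.81, beside 0.07 over all genes tested, and 13 of 23 were fitted lower, against 47.2%. That median was -0.36 without actD library 1 and -1.22 without actD library 3. At 6 h 0 of 11 were called (0% of 1212 genes), 2 were lower and none higher at an unadjusted p under 0.05 (1.9% and 1.24% of all genes), and DESeq2 called 1, TJP1. Of the 11, 9 were fitted lower, against 43.2% of all genes, and the arms were apart for 4 lower and 0 higher ones, against 5.69% and 3.71%. Without a filter on low counts edgeR called 1 at 6 h, FLNC, and the share of all genes called in that fit is not given. At 2 weeks 0 of 18 were called (0% of 1598 genes) by edgeR and by DESeq2, with 4 lower and 1 higher at an unadjusted p under 0.05 (4.51% and 4.07% of all genes). Of the 18, 10 were fitted lower, against 48.7% of all genes, and arms were apart for 4 lower and 1 higher, against 6.57% and 8.32%. The 2 calls at 72 h depended on the libraries used. Leaving out any of the 3 DMSO libraries or actD library 1 or 2 gave 0 calls, whereas without actD library 3 there were 6 (MYL6 higher, and TLN1, TNS3, CTNNA1, MYH10 and TJP1 lower), where 10.4% of all genes were called. Library totals in place of TMM also gave 0, and protein-coding genes alone gave 4, namely MYL6, TNS3, TLN1 and FLNC (8.72% of all genes).

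**Figure D2:**
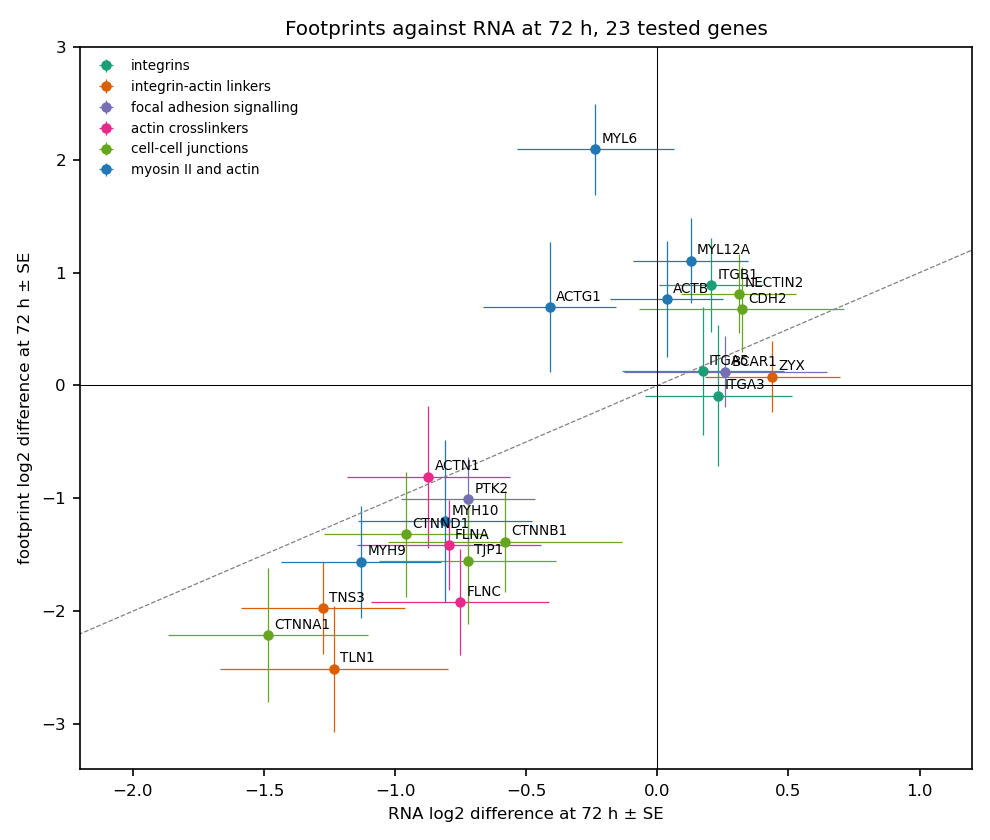
Log2 difference in footprints (y axis) against that in RNA (x axis) at 72 h for the 23 genes tested in both, with SE as bars and roles as colours; the dashed line marks equal differences. Signs were alike for 20 of 23, with TLN1, CTNNA1 and TNS3 lowest and MYL6 highest in footprints.

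Of the 8 integrins none passed the edgeR test in any comparison (DESeq2 called ITGA6 in 72 h RNA), and their fitted RNA differences at 72 h had both signs. The beta 1 subunit ITGB1 (chr10:32900319-33005792, minus strand, GRCh38), the partner shared by most alpha chains, had 309, 240 and 320 CPM of RNA in the 72 h DMSO libraries and 348, 330 and 322 in actD. The arms did not overlap, but the log2 difference of 0.20 (SE 0.20) came with an adjusted p of 0.69. Its 72 h footprints were 170, 110.6 and 211 CPM in DMSO and 333, 324 and 242 in actD, again apart (log2 difference 0.89, SE 0.42, adjusted p 0.20). At 6 h they lay the other way, with 43.9, 19.5 and 23.6 CPM in DMSO and 8.27, 15.9 and 22.5 in actD. The change of the footprint difference from 6 h to 72 h was 1.96 (SE 0.68, adjusted p 0.73, edgeR interaction). Integrin alpha 6 (ITGA6, chr2:172427354-172506282, plus strand), a laminin receptor chain, had the lowest fitted RNA difference of the integrins at 72 h. Its RNA was 13.9, 12.3 and 20.8 CPM in DMSO and 7.57, 7.38 and 9.20 in actD (log2 difference -0.96, SE 0.26, adjusted p 0.27). At 6 h the ITGA6 arms overlapped at 8.62 to 10.1 CPM, and the change between the times was -1.04 (SE 0.30, adjusted p 0.44).

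The other integrins showed small differences. ITGAV, the vitronectin receptor chain, had log2 RNA differences of 0.25, 0.26 and 0.41 at 6 h, 72 h and 2 weeks, and ITGA5, the fibronectin receptor chain, 0.06, 0.17 and 0.39. ITGA2, ITGA3 and ITGB5, which bind collagen, laminin and vitronectin, stayed between -0.39 and 0.33, and ITGB5 RNA was lower with arms apart at 72 h (13.6 to 17.3 CPM in actD, 19.7 to 21.5 in DMSO). At 2 weeks all 8 integrins had higher fitted RNA in the libraries named actd, 3 of them with arms apart (ITGB1, ITGA5 and ITGAV). In DMSO, ITGB3 and ITGA2 were the 2 lowest of the 41 genes in RNA per kilobase at each time. ITGB3 had 0.06 to 2.75 CPM, with the 6 h arms apart and actD lower, and 95.8% of the 28-base windows of its coding sequence also lie in the annotated gene AC068234.1, so its value is uncertain.

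Several integrins and their cytoplasmic partners had RNA but hardly any footprints. ITGA2, ITGB3 and the integrin-linked pseudokinase ILK were listed at 0 in all 18 footprint libraries, which allows up to 2.70 to 37.3 CPM per library, or 3 counts. ITGA6 and the parvin PARVA each had 1 footprint in all. On library totals, ILK had 21.1 to 66.3 CPM of RNA, and ITGAV, with 55.0 to 156.0, had 15 footprints over the 18 libraries. ITGB1 had 887 and ITGA5, at only 12.2 to 41.9 CPM of RNA, had 218. Among 4427 coding genes with at least 20 CPM of RNA in every library, 2.46% were listed at 0 in all footprint libraries and 18.1% had at most 20 footprints. Of the 25 listed genes past that level, ILK alone was at 0, and ILK and ITGAV had at most 20.

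Talins, which bind integrin tails and actin at once, gave the most regular pattern. TLN1 (chr9:35696948-35732395, minus strand) had 195, 199 and 192 CPM of RNA in the 6 h DMSO libraries and 112, 118 and 76.0 in actD. That is a log2 difference of -0.94 (SE 0.17, adjusted p 0.21). At 72 h the DMSO libraries held 59.2, 154 and 45.8 CPM and the actD libraries 34.6, 37.3 and 38.4, so the arms stayed apart although library 2 of DMSO was far above the others (-1.23, SE 0.44, adjusted p 0.32). At 2 weeks the libraries named dmso held 110.95, 117 and 117 CPM and those named actd 75.0, 46.0 and 52.0 (-0.99, SE 0.18, adjusted p 0.29).

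TLN1 footprints pointed the same way at each time. They were 61.2, 50.6 and 42.0 CPM in DMSO and 20.7, 18.5 and 8.99 in actD at 6 h (-1.67, SE 0.43, adjusted p 0.89). At 72 h they were 76.9, 188 and 87.1 CPM in DMSO and 11.95, 13.6 and 34.5 in actD, from 7 to 56 counts and 5 to 29 counts (-2.51, SE 0.56, adjusted p 0.051). In the 2-week libraries DMSO had 44.9, 38.7 and 21.1 CPM and actD 17.1, 7.98 and 16.0 (-1.35, SE 0.40, adjusted p 0.53). These levels are after TMM scaling, with the 2-week RNA arms taken by library name. TLN1 was thus the 1 gene of the list with arms apart and lower in all 6 tables. How many genes outside the list did so was not counted. The 72 h footprint value had an adjusted p of 0.017 by DESeq2 and 0.041 by edgeR without actD library 3. Over 12 alternatives by edgeR or DESeq2 it ran from 0.014 to 0.27, and 7 of the 12 left the gene uncalled. No 28-base window of its coding sequence occurs in another annotated gene.

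TLN2 (chr15:62390526-62844631, plus strand), the second talin, had RNA of 46.0, 42.2 and 42.0 CPM in DMSO and 24.2, 30.0 and 17.7 in actD at 6 h (-0.86, SE 0.19, adjusted p 0.29). At 72 h DMSO held 23.5, 39.4 and 17.0 CPM and actD 6.30, 6.38 and 16.9, where library 3 of each arm nearly met (-1.43, SE 0.48, adjusted p 0.31). At 2 weeks the values were 26.0, 27.4 and 31.1 CPM in libraries named dmso and 15.02, 13.2 and 17.0 in those named actd (-0.90, SE 0.13, adjusted p 0.14). Its footprints never exceeded 3 counts.

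Tensin 3 (TNS3, chr7:47275154-47582558, minus strand), an adaptor of mature adhesions, had 354, 313 and 342 CPM of RNA in DMSO and 171, 178 and 145 in actD at 6 h, about a 2.04-fold lower level (log2 -1.03, SE 0.13, adjusted p 0.088). At 72 h DMSO held 128, 150 and 88.6 CPM and actD 38.0, 42.0 and 71.3 (-1.27, SE 0.31, adjusted p 0.26). At 2 weeks libraries named dmso held 145, 168 and 181 CPM and those named actd 127, 93.7 and 117 (-0.55, SE 0.15, adjusted p 0.43). The arms were apart each time. TNS3 footprints at 72 h were 76.9, 73.8 and 49.8 CPM in DMSO (34, 22 and 4 counts) and 17.9, 8.16 and 23.8 in actD (12, 3 and 20 counts). They fell by 1.97 on the log2 scale, 3.93-fold (SE 0.41, adjusted p 0.047 by edgeR). After TMM scaling 3 of 3 actD libraries lay below every DMSO library. On library totals the arms overlapped. Library 3 of actD held 20 of 693951 counts and library 3 of DMSO 4 of 152556, a smaller share. The adjusted p was 0.052 by DESeq2 and 0.28 on library totals. Over 12 alternatives by edgeR or DESeq2 it ran from 0.032 to 0.28, and 10 of the 12 left TNS3 uncalled. The fit without a filter on low counts and the 1 fit over all times were among these. The related tensins had smaller RNA differences, from -0.52 to -0.17 for TNS1 and from -0.40 to -0.04 for TNS2.

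**Figure D3:**
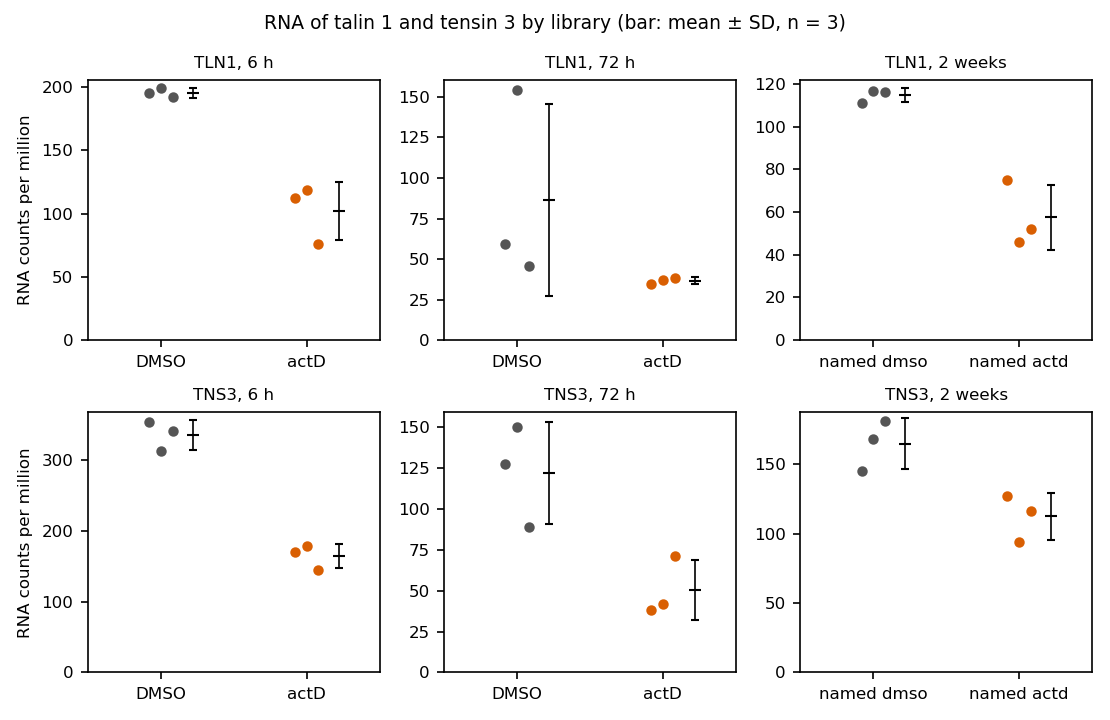
RNA in CPM (y axis) of TLN1 and TNS3 in each library (points) by arm (x axis), with mean ± SD (n = 3) as bars, at 6 h, 72 h and 2 weeks. Arms do not overlap in any panel, and 1 DMSO library of 72 h holds the highest TLN1 value of that time at 154 CPM.

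Vinculin (VCL, chr10:73995193-74121363, plus strand), which reinforces talin-actin links under load, did not follow the talins at 6 h. Its RNA was 174, 161 and 192 CPM in DMSO and 207, 192 and 187 in actD then. At 72 h it was 78.2, 103 and 85.6 CPM in DMSO and 29.6, 38.2 and 54.2 in actD, all below (-1.13, SE 0.26, adjusted p 0.24). The change between the times was -1.30 (SE 0.30, adjusted p 0.28 by edgeR, 0.014 by DESeq2). At 2 weeks the arms overlapped (-0.17, SE 0.16). Vinculin footprints at 72 h were 9, 4 and 3 counts in DMSO and 0, 0 and 10 in actD, too few for the filter. The kindlin FERMT2, an integrin activator, and ILK and PARVA, which form a complex with LIMS1 at integrin tails, had log2 RNA differences of -0.53 to -0.38 at 72 h, and LIMS1 -0.32. At 2 weeks the arms of FERMT2 were apart and lower (-0.50, SE 0.17). LIMS1 shares 72.9% of its 28-base coding windows with LIMS3 and is uncertain. Zyxin (ZYX), a LIM protein of tensed actin bundles, lay higher at 72 h with 19.9, 20.2 and 32.8 CPM in actD against 17.5, 16.1 and 20.2 in DMSO (0.44, SE 0.26, adjusted p 0.51). Its footprints overlapped between arms (0.08, SE 0.32).

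Of the signalling genes, focal adhesion kinase (PTK2, chr8:140657900-141002216, minus strand) differed most. At 72 h its RNA was 149, 98.8 and 147 CPM in DMSO and 72.3, 66.2 and 101 in actD. The arms overlapped by a single library (-0.72, SE 0.25, adjusted p 0.32). Its footprints did not overlap, at 67.9, 57.0 and 87.1 CPM in DMSO and 22.4, 32.6 and 45.2 in actD (-1.01, SE 0.37, adjusted p 0.14). The kinase SRC and the scaffolds PXN (paxillin) and BCAR1 (p130Cas) had RNA differences between -0.19 and 0.26 at all 3 times. BCAR1 footprints at 72 h differed by 0.12 (SE 0.31), and SRC had 17 and PXN 22 footprints over all 18 libraries.

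All 4 actin crosslinkers had lower fitted RNA at each time, and their arms were apart for 4 of 4 at 6 h and at 2 weeks and for 2 of 4 at 72 h, beside 8.17%, 7.83% and 10.3% of all genes lower with arms apart at those times. Filamin C (FLNC, chr7:128830377-128859274, plus strand) had 669, 625 and 725 CPM of RNA in DMSO and 535, 494 and 376 in actD at 6 h. At 72 h the values were 165, 377.3 and 175 CPM in DMSO and 129, 153 and 144 in actD, with log2 differences of -0.52 and -0.75 at the 2 times. Its footprints at 72 h were 156, 268 and 99.5 CPM in DMSO and 41.8, 32.6 and 65.4 in actD (-1.92, SE 0.47, adjusted p 0.063, and 0.046 by DESeq2). Filamin A (FLNA, chrX:154348524-154374638, minus strand) had RNA differences of -0.43, -0.80 and -0.46 at the 3 times. Footprints of FLNA at 6 h were 277, 125 and 139 CPM in DMSO and 84.7, 92.6 and 92.2 in actD (-1.01, SE 0.54, adjusted p 0.89). At 72 h they were 455, 476 and 647 CPM in DMSO and 187, 212 and 189 in actD, so every actD library was below every DMSO library (-1.42, SE 0.40, adjusted p 0.082). The alpha-actinins ACTN1 and ACTN4, which bundle actin in antiparallel pairs, had RNA differences of -0.87 (SE 0.31) and -1.05 (SE 0.39) at 72 h. In ACTN4 the arms overlapped through actD library 3, at 57.3 CPM against 50.9 in the lowest DMSO library.

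Because SRF is a known regulator of actin genes, promoters were searched for its CArG box (both strands, from 250 bases before to 50 after a RefSeq transcript start, GRCh38.p14). It was found in 3 of the 66 windows of the 32 genes of the list with a window (4.55%) and in 1.29% of 35116 windows of all genes. Genes without a window were not searched and are not named here, so a gene with no match may lack only the window. The 3 matches are shown since each is 1 of the crosslinkers or actins whose RNA is described here; capitals mark the box.
FLNA, chrX:154374699-154374748, minus strand, box starting 94 bases upstream: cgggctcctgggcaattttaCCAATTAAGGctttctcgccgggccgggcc
ACTG1, chr17:81512864-81512913, minus strand, box starting 94 bases upstream: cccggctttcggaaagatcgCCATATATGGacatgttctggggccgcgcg
ACTN1, chr14:68977708-68977757, minus strand, box starting 171 bases upstream: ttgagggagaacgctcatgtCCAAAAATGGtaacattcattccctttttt
FLNA and ACTN1 had lower fitted RNA at each time, whereas ACTG1 had log2 differences of 0.22, -0.41 and -0.04. A match is a run of letters and no evidence of binding. The motif GGAATG was in 16.7% of the windows of the list and 14% of all windows, and TATAAA in 9.09% and 11.5%.

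At cell-cell junctions, alpha-catenin (CTNNA1, chr5:138610967-138935034, plus strand), which ties the cadherin complex to actin, was lowest at 72 h. Its RNA was 144, 228 and 119 CPM in DMSO and 39.4, 46.7 and 89.4 in actD, a 2.80-fold lower fitted level (-1.49, SE 0.38, adjusted p 0.26). Its footprints were 99.5, 161 and 62.2 CPM in DMSO and 13.4, 10.9 and 44.0 in actD (-2.21, SE 0.59, adjusted p 0.073). The third actD library lay nearest to DMSO in both assays, and without it the footprint difference was -3.08 (adjusted p 0.041). A processed copy, CTNNA1P1, shares 12.2% of the 28-base coding windows of CTNNA1. The change in its RNA difference from 6 h to 72 h was -1.15 (SE 0.44, adjusted p 0.58).

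Beta-catenin (CTNNB1, chr3:41194741-41260096, plus strand), which binds cadherin tails and also acts in Wnt signalling, depended on 1 library in RNA. Its 72 h RNA was 344, 314 and 194 CPM in DMSO and 118, 120 and 331 in actD, so library 3 of actD lay within the DMSO range (-0.58, SE 0.45). Its footprints did not overlap, at 570, 654 and 498 CPM in DMSO and 167, 174 and 318 in actD (-1.38, SE 0.45, adjusted p 0.10). CTNND1 (p120-catenin, chr11:57753243-57819546, plus strand), which stabilises cadherins at the membrane, had RNA of 81.6, 91.9 and 45.6 CPM in DMSO and 39.6, 27.6 and 45.3 in actD (-0.96, SE 0.31, adjusted p 0.30). The third libraries of both arms were almost equal. CDH11 RNA at 72 h was 39.1, 37.3 and 18.9 CPM in DMSO and 14.1, 12.1 and 35.1 in actD, with overlapping arms.

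The tight junction scaffold ZO-1 (TJP1, chr15:29699367-29968865, minus strand) had footprint arms apart and lower in actD at all 3 times. At 6 h its footprints were 53.0, 52.0 and 52.5 CPM in DMSO and 20.7, 13.2 and 15.7 in actD (-1.65, SE 0.34, adjusted p 0.89 by edgeR and 0.026 by DESeq2). Its RNA difference then was -0.32 (SE 0.17). At 72 h footprints were 108.6, 110.6 and 87.1 CPM in DMSO and 16.4, 19.0 and 66.6 in actD (-1.55, SE 0.56, adjusted p 0.13). At 2 weeks they were 27.9, 32.4 and 18.1 CPM in DMSO and 12.5, 10.3 and 5.83 in actD, also apart (-1.44, SE 0.34, adjusted p 0.53). Its RNA differences were -0.72 (SE 0.34) at 72 h and -0.36 (SE 0.14) at 2 weeks, and the footprint difference beyond RNA passed the edgeR test at no time (adjusted p 0.52, 0.50 and 0.88).

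NECTIN2 and CDH2, surface proteins of these contacts, had higher fitted footprints at 72 h. The cadherin CDH11 lay lower, at 20.4, 20.1 and 24.9 CPM in DMSO and 8.96, 10.9 and 11.9 in actD. Its counts were 9, 6 and 2 in DMSO and 6, 4 and 10 in actD, too few for the filter. Nectin 2 (NECTIN2, chr19:44846175-44889228, plus strand), an immunoglobulin-type adhesion molecule, had 2-week footprints of 13.9, 11.7 and 9.06 CPM in DMSO and 22.8, 21.7 and 23.3 in actD (0.95, SE 0.25, adjusted p 0.53). Its 72 h footprints were 79.2, 63.7 and 99.5 CPM in DMSO and 160, 139 and 117 in actD, with no overlap either (0.81, SE 0.35, adjusted p 0.18). At 6 h NECTIN2 had 24, 8 and 0 footprint counts in DMSO and 0, 2 and 4 in actD, too few for the filter. N-cadherin (CDH2, chr18:27950966-28177446, minus strand) had 26, 18 and 2 footprint counts in DMSO and 0, 2 and 1 in actD at 6 h, and 22, 10 and 3 in DMSO and 41, 17 and 74 in actD at 72 h. The change in its difference was 3.75 (SE 0.98, adjusted p 0.73), which rests on 3 actD counts at 6 h. CDH2 RNA in actD at 72 h was 46.8, 44.7 and 121 CPM against 50.3 to 61.8 in DMSO, so only library 3 was high.

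**Figure D4:**
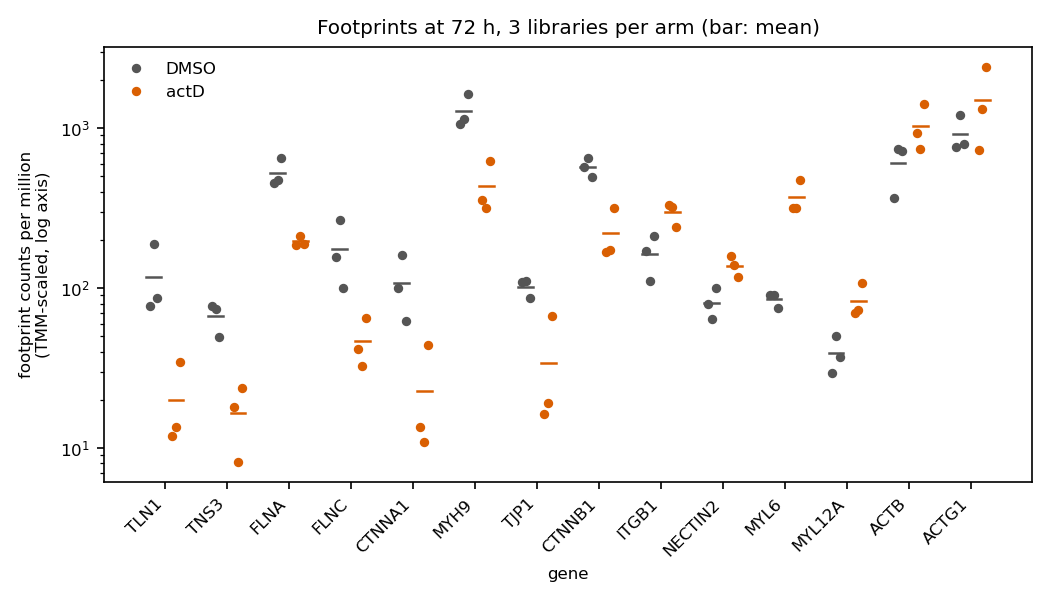
Footprints in CPM (TMM-scaled, log y axis) at 72 h for 14 of the genes (x axis), with 3 DMSO and 3 actD libraries as points and bars at the means. Arms do not overlap for TLN1, TNS3, FLNA, FLNC, CTNNA1, MYH9, TJP1 and CTNNB1 (lower in actD) or for ITGB1, NECTIN2, MYL6 and MYL12A (higher).

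Of the myosin II and actin genes, MYL6 alone passed the edgeR test, in 72 h footprints. The heavy chain MYH9 (chr22:36281277-36388067, minus strand) of non-muscle myosin IIA had 72 h RNA of 218, 374 and 192 CPM in DMSO and 99.2, 112 and 147 in actD (-1.13, SE 0.30, adjusted p 0.27). Its footprints were 1061, 1143 and 1642 CPM in DMSO and 355, 318 and 626 in actD (-1.56, SE 0.50, adjusted p 0.10). Arms were apart in both assays, whereas at 2 weeks RNA differed by -0.01 (SE 0.13) and footprints by -0.20 (SE 0.39). MYH10, the heavy chain of myosin IIB, had 72 h differences of -0.81 (SE 0.33) in RNA and -1.20 (SE 0.72) in footprints with overlapping arms.

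The essential light chain MYL6 (chr12:56158161-56163496, plus strand), which binds those heavy chains, rose in footprints at 72 h. The counts were 40, 27 and 6 in DMSO and 213, 117 and 396 in actD, or 90.5, 90.5 and 74.6 CPM against 318, 318 and 471 CPM. That is 4.27-fold (log2 2.09, SE 0.40, adjusted p 0.047 by edgeR), with 3 of 3 actD libraries above every DMSO library. MYL6 RNA overlapped at 169 to 382 CPM in DMSO and 235 to 246 in actD (-0.24, SE 0.30). MYL6 footprints at 2 weeks were 13.9, 14.4 and 36.2 CPM in DMSO and 19.4, 27.4 and 21.9 in actD, and the difference changed by -2.11 from 72 h (SE 0.58, adjusted p 0.37). Of the 28-base coding windows of MYL6, 21% also occur in other annotated genes, MYL6B foremost. Across the alternatives its 72 h footprint difference stayed between 1.975 and 2.27, with adjusted p from 0.13 to 0.23 without actD library 1 or 2 or DMSO library 1 or 2 and of 0.052 without DMSO library 3. MYL6 was left uncalled by 7 of the 12 alternatives. The regulatory light chain MYL12A had footprints of 29.4, 50.3 and 37.3 CPM in DMSO and 70.2, 73.4 and 107.1 in actD (1.11, SE 0.38, adjusted p 0.12). Its RNA difference was 0.13 (SE 0.22), and MYL12B shares 36.9% of its windows. The change of its footprint difference from 6 h to 72 h was 1.44 (SE 0.70, adjusted p 0.73). MYL9, a second regulatory light chain, had 0, 5 and 0 footprint counts in DMSO and 20, 9 and 38 in actD, below the filter.

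The cytoplasmic actins led the list in abundance. At 72 h in DMSO, RNA per kilobase of merged exon was 377 ± 46.0 CPM (SD, n = 3) for ACTB and 279 ± 26.0 for ACTG1, followed by MYL6 at 61.7 ± 23.4 and FLNA at 55.7 ± 27.7. MYL6, FLNA and ITGB1 (48.2 ± 7.20) did not differ beyond their spread. Under actD, ACTB was 1402, 1280 and 1399 CPM against 1472, 1355 and 1152 in DMSO at 72 h, with a log2 difference of 0.04 (SE 0.21). ACTG1 was 746, 867 and 890 CPM in DMSO and 518, 540 and 824 in actD (-0.41, SE 0.25), while its footprints were 758, 1204 and 796 CPM in DMSO and 732, 1322 and 2421 in actD (0.70, SE 0.57). Footprints of these paralogs can be hard to assign. Their coding sequences of 1125 bases are identical at 1027 positions (91.3%) and share 101 windows of 28 bases. The first 90 coding bases (GENCODE 29) are shown to let the paralogs be compared, with the 17 differing bases in capitals.
ACTB: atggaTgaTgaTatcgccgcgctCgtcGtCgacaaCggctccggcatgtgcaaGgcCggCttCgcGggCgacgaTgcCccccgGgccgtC
ACTG1: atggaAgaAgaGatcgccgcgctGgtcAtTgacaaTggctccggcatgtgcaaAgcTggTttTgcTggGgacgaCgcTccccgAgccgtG
Of all 28-base windows, 53.9% of ACTB and 38.4% of ACTG1 occur in at least 1 of 45 other annotated genes, so both values are uncertain.

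Translational efficiency, the footprint difference beyond the RNA difference, was tested in 1 edgeR model over both assays. At 72 h 0 of 23 were called, beside 0.433% of 2311 genes, with 1 higher and 1 lower at an unadjusted p under 0.05 (9.17% and 5.76% of all genes), and DESeq2 called MYL6. MYL6 had the largest value, 2.15 (SE 0.44, adjusted p 0.058, and 0.000954 by DESeq2). It passed the edgeR test, as the 1 call, without RNA DMSO library 3, without footprint actD library 2 or 3, and on protein-coding genes alone. Without footprint DMSO library 2 the 1 call was MYL9, whose other DMSO libraries hold 0 footprints, and MYL6 had an adjusted p of 0.077. Next came FLNC at -1.34 (SE 0.58, adjusted p 0.30), TLN1 at -1.45 (SE 0.71, adjusted p 0.37) and MYL12A at 0.87 (SE 0.45, adjusted p 0.38). TNS3 (-0.87, SE 0.49), FLNA (-0.79, SE 0.47), ACTG1 (0.98, SE 0.60) and CTNNB1 (-0.96, SE 0.58) had adjusted p from 0.43 to 0.47. The library values behind these are those given above.

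At 6 h 0 of 11 were called for translational efficiency (0% of 951 genes) and 2 were lower at an unadjusted p under 0.05 (2.31% of all genes). The leading values were TJP1 -1.31 (SE 0.37, adjusted p 0.52), ITGB1 -1.08 (SE 0.41, adjusted p 0.74) and TLN1 -0.70 (SE 0.45, adjusted p 0.94). At 2 weeks 0 of 18 were called (0% of 1441 genes) and 1 was lower at an unadjusted p under 0.05 (2.43% of all genes). TJP1 stood at -1.14 (SE 0.36, adjusted p 0.88), NECTIN2 at 0.52 (SE 0.28, adjusted p 0.88) and FLNC at -0.998 (SE 0.63, adjusted p 0.91). With the 2-week RNA arms taken from the titles, 3 were called, TLN1 (-2.39), TJP1 (-1.83) and NECTIN2 (1.33), where 1.87% of all genes were. DESeq2 called 0 at 6 h and at 2 weeks.

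Coding length ran with the differences. Over the 23 genes tested in 72 h footprints, Spearman's correlation between longest coding length and log2 difference was -0.775, over the 41 in RNA -0.487, and over the 23 in translational efficiency -0.749; the points share libraries and are a description. Of the 10 genes above 3000 coding bases, a limit set after the values were seen, 9 were lower in footprints with a median of -1.48, and of the 13 shorter ones 4 were, with a median of 0.68. The long group holds TLN1 (7623 bases), FLNA (7941), FLNC (8175), TNS3 (4335), MYH9 (5880) and TJP1 (5304), and the short one MYL12A (531), MYL6 (714) and the actins. The same direction was seen outside the list: over 2202 other coding genes it was -0.581, with 75.3% of the 485 longer genes lower (median -0.50) and 40.2% of the 1717 shorter ones (median 0.25). In RNA at 72 h, the correlation was -0.225 over 14329 other coding genes, and 69.1% of the longer ones were lower (median -0.22), beside 13 of 18 longer genes of the list (median -0.74). Of the shorter genes, 52.1% outside the list were lower in RNA (median -0.025), beside 15 of 23 of the list (median -0.38). The part of length in these differences was not tested. Values within the short group were spread. CTNNA1 (2718 bases) was at -2.21, CTNNB1 (2349) at -1.38 and CDH2 (2718), with overlapping arms, at 0.68 (SE 0.38). These genes were picked after the values were seen, and the reason for their spread was not tested.

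**Figure D5:**
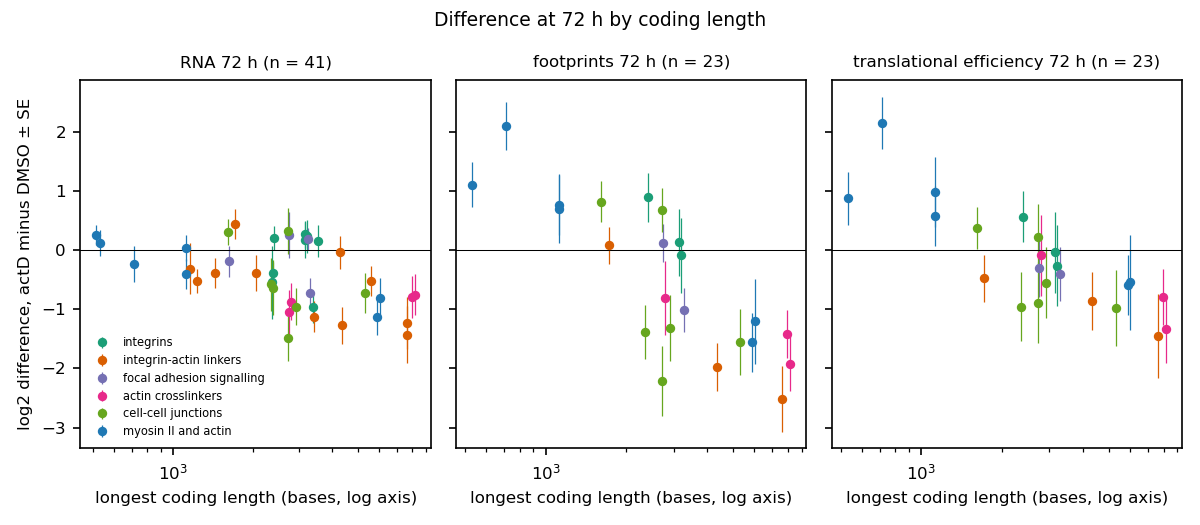
Log2 difference between actD and DMSO at 72 h with SE (y axis) against longest coding length (log x axis) in RNA, footprints and translational efficiency, coloured by role. In footprints the light chains and actins at the left lie above 0 and the talin, filamin and heavy chain genes at the right lie below it.

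Between 6 h and 72 h, no gene of the list differed in its RNA effect by the edgeR interaction test (0 of 41, against 0.0165% of 24251 genes). At an unadjusted p under 0.05 were 4 more negative ones, VCL, ITGA6, CTNNA1 and MYH9, against 5.18% of all genes, and DESeq2 called VCL alone. Without RNA actD library 3 of 72 h, edgeR also called 1, again VCL. For footprints 0 of 24 differed between 6 h and 72 h (0% of 3012 genes), with CDH2 and ITGB1 at an unadjusted p under 0.05 (4.52% of all genes in that direction). From 72 h to 2 weeks 0 of 28 did, against 0.0532% of 3760 genes, and MYL6 alone was under 0.05 unadjusted (4.52% of all genes lower). DESeq2 called 0 in both. The leading values there besides MYL6 were MYH9 at 1.22 (SE 0.57, adjusted p 0.66) and CTNNA1 at 1.42 (SE 0.73, adjusted p 0.68), both toward smaller differences at 2 weeks.

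Of 136 further genes of the same pathways, 133 were tested in RNA at 72 h and none was called. At an unadjusted p under 0.05, 18 were lower and 3 higher (7.78% and 5.27% of all genes), with a median of -0.13. The 4 leading ones were adhesion adaptors: PARVB, a parvin, at 24.9 ± 6.65 CPM in DMSO and 10.999 ± 2.23 in actD (-1.18, adjusted p 0.24), FERMT1, a kindlin, at 12.02 ± 0.33 and 6.62 ± 0.46 (-0.86, adjusted p 0.24), LPP, a zyxin relative, at 64.2 ± 13.9 and 29.04 ± 8.20 (-1.14, adjusted p 0.25), and DOCK1, a Rac activator, at 67.1 ± 2.70 and 31.2 ± 11.5 (-1.10, adjusted p 0.26; SD, n = 3 each). Matrix ligands lay higher in 11 of 15, with a median of 0.21, and other integrins in 7 of 10. The adaptors were lower in 16 of 23, actin assembly genes in 25 of 35 and other junction genes in 15 of 24, while SRF and its coactivators lay between -0.44 and 0.11. Over all genes tested 48.6% were fitted lower, and no set was tested. In 72 h footprints 50 of the 136 were tested, 29 higher and 21 lower (47.2% of all genes were lower), and none was called. Among the leading ones were TPM2, a tropomyosin (1.72, SE 0.43, adjusted p 0.067), and LPP (-2.38, SE 0.73, adjusted p 0.099), each with arms apart.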

How the data were processed

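Total RNA and ribosome footprints were sequenced in 18 libraries each, 3 per arm and time. The authors deposited 1 table per assay and time of estimated counts (expected counts) per gene, unpooled and unscaled; the submitters' processing notes name HISAT2, StringTie and hg38 without role or version, and the counting settings and use of strand are not given in the sources used here. Values were already whole, so rounding changed nothing. In the 6 h and 2-week RNA tables values of 3 were 1.59 and 1.58 times as frequent as values of 2 (0.699 in the 72 h table), so what 1 count stands for there is uncertain. Columns were matched to samples by library name, which the titles contradict for RNA of 2 weeks.

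Version suffixes were stripped and 99.3% of identifiers matched GENCODE 29 (GRCh38). Each comparison was fitted over the whole table in edgeR 4.0.16 (R 4.3.3): filterByExpr (minimum count 10, minimum total 15), TMM, glmQLFit and glmQLFTest, two-sided, Benjamini-Hochberg adjustment over all tested genes, calls at adjusted p under 0.05. Translational efficiency and changes between times were interaction terms. The script was tested on simulated counts. Replicate libraries of an arm differed beyond counting noise. Values by library and statistics were given for called genes, the 8 smallest unadjusted p at 72 h in each of RNA, footprints and translational efficiency, the 3 smallest elsewhere, and 4 pathway genes in each assay at 72 h; some of these genes and a few markers are not reported here. The alternatives were DESeq2 1.42.0, library totals, no filter, 1 fit over all times, TMM over 12 libraries, a replicate block, the other 2-week labels, each library left out and, chosen after seeing the data, protein-coding genes alone. The genes and lists were chosen with earlier results of these data known. Limits that a count of 0 allows use 3 counts and cover counting error only. Promoters came from RefSeq windows (GRCh38.p14), and coding sequences from GENCODE 29 transcripts, whose 28-base windows were compared with all annotated transcripts.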

Additional observations from a re-analysis of the deposited data

How the results depend on the processing

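By DESeq2 the calls among the 41 genes were 3 (RNA 6 h), 5 (RNA 72 h), 2 (RNA 2 weeks), 1 (footprints 6 h), 4 (footprints 72 h), 1 (translational efficiency 72 h) and 1 (RNA effect from 6 h to 72 h), against 0, 0, 0, 0, 2, 0 and 0 by edgeR. Shares of all genes called by DESeq2 are not given, so its counts cannot be set against a background. One fit over all times called 9 in RNA at 72 h. In 72 h footprints library totals called 0 and protein-coding genes alone 4, which also called 1 in translational efficiency at 72 h. Without a filter 1 was called in 6 h footprints, with a median of -0.86. In 72 h footprints that setting called CTNNA1, MYL6 and TLN1 but not TNS3, and its share of all genes called is not given. The other 2-week labels gave 3 calls and a median of -0.20 in translational efficiency, a median of 0.10 in RNA, and RNA differences of 0.99 for TLN1, 0.90 for TLN2 and 0.55 for TNS3. Library totals moved medians to -0.25 (RNA 2 weeks, with -0.18 over all genes), -1.40 (footprints 6 h, with -0.61), -1.25 and 0.34 (translational efficiency at 6 h and 2 weeks). Leaving out 1 library gave 0 to 6 calls in 72 h footprints, 0 to 1 in translational efficiency at 72 h and in the RNA effect from 6 h to 72 h, and a 2-week RNA median of -0.092 to -0.017.

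Equal replicate numbers were not taken as pairs of actD and DMSO libraries, since no table had every pair over 0.1: the deviations of actD and DMSO libraries of 1 number correlated at -0.04 to 0.02 in 72 h footprints and 0.08 to 0.21 in 72 h RNA. There 1 of 6 and 6 of 6 libraries correlated best with their own number. Between RNA and footprints of 1 arm the range was 0.165 to 0.404 in 72 h actD, with 3 of 3 pairs over 0.1, and 0.095 to 0.212 in 72 h DMSO, and 6 of 6 libraries correlated best with their own number in 72 h DMSO and in both 2-week arms. With a replicate block 0 genes were called in 72 h footprints, and the block changed no other count of calls, translational efficiency included.

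Of 746 values for single genes, 690 kept direction and side of the threshold, 36 passed it, 17 missed it and 3 reversed. All 17 belong to the genes called by the main fit, MYL6 and TNS3 in 72 h footprints. MYL6 lost its call in 7 of 12 alternatives and TNS3 in 10 of 12. The other genes were uncalled in the main fit and kept their side by staying uncalled. Depth limits the footprints: 11, 23 and 18 of the 41 genes passed the filter at 6 h, 72 h and 2 weeks.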
